A study of Homo sapiens with 6 samples.

Results

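The HOX genes encode homeodomain transcription factors and lie in 4 clusters in the human genome. They were taken as the protein-coding genes of the RefSeq table of assembly GRCh38.p14 whose symbol is HOXA, HOXB, HOXC or HOXD followed by digits. That rule gave 39 genes of 19974 protein-coding genes on chromosomes 1 to 22 and X. HOXA on chromosome 7 holds 11 of them, HOXB on chromosome 17 holds 10, HOXC on chromosome 12 holds 9 and HOXD on chromosome 2 holds 9. Chromatin immunoprecipitation with sequencing (ChIP-seq) had been done in K562 cells, an established human line from the blast crisis of chronic myeloid leukaemia, infected with a short hairpin RNA against Staufen 2 (shStau2) or with a control hairpin (shControl). Staufen 2 is a double-stranded RNA-binding protein. Each hairpin had 1 library for trimethylation of lysine 4 of histone H3 (H3K4me3), 1 for dimethylation of the same residue (H3K4me2) and 1 input, against which the authors called the peaks. With 1 library per mark and hairpin no test between hairpins was possible, and all values describe these libraries in this line. No source used here gives the time after infection, and peak lists hold no RNA, so the knockdown was not checked.

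Genes of a HOX cluster are ordered along the chromosome as their territories are ordered along the body axis, from anterior genes with low numbers to posterior genes with high numbers. Trithorax proteins such as KMT2A keep them active and place H3K4 methylation there, and Polycomb proteins keep them silent. In blood, HOX genes are active in stem and progenitor cells and are switched off as cells mature, and several of them drive leukaemia when they stay on. H3K4me3 marks mainly active or poised gene starts, whereas H3K4me2 also spreads into gene flanks and enhancers.

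The libraries differed as a whole. The H3K4me3 libraries held 26320758 tags after duplicate removal under shStau2 and 30744332 under shControl, and the H3K4me2 libraries 27979370 under shStau2 and 26221869 under shControl. The compared H3K4me3 lists held 27333 peaks under shStau2 and 22041 under shControl. At 15552 H3K4me3 peaks that matched 1 to 1 between the lists across the genome, the median fold enrichment, the authors' own value for each peak against the local background, was 30.97 under shStau2 and 14.99 under shControl. The values of both lists therefore have no common scale, and each HOX value is given beside that of all genes. Both H3K4me2 lists are cut short by chromosome, and the 16 chromosomes that both hold whole carry HOXB, HOXC and HOXD but not HOXA. H3K4me3 lay at the gene ends of 8 of 8 erythroid and K562 marker genes in both lists. It lay at 0 of 3 genes in each of the T cell, B cell, hepatocyte and neuron lists, and at 1 of 3 fibroblast genes, COL1A1. H3K4me2 lay in both peak lists at 6 of 6 compared erythroid and K562 genes, 2 of 3 T cell genes (CD3E and CD3D), 1 of 3 B cell genes (CD79A), 1 of 2 fibroblast genes (COL1A1), 0 of 2 hepatocyte genes and 0 of 3 neuron genes.

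A H3K4me3 peak lay within 1 kb of an annotated start at 16 of 39 HOX genes in both lists, at 4 in the shStau2 list only, at 0 in the shControl list only and at 19 in neither. Among the 4 were HOXA13, HOXC10 and HOXD9. Of all 15831 protein-coding genes with a placed start, 64.2% had a peak in both lists, 3.52% in the shStau2 list only, 0.0884% in the shControl list only and 32.2% in neither. The HOX shares were 41.03% in both lists, 10.26% in the shStau2 list only and 48.72% in neither. The 19 HOX genes without an entry in the RefSeq promoter table were judged at their outermost start only. With the threshold of each list raised to allow for the gap in fold enrichment, to 8.2 under shStau2 and 3.97 under shControl, 0 HOX genes had a start peak under shStau2 alone and 2, HOXD13 and HOXA3, under shControl alone.

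Peaks covered more bases within 2 kb of the starts under shStau2 at 20 HOX genes, fewer at HOXA3 and equally many at 18. The share with more was 51.28% of HOX genes against 66.9% of all genes, and the share with fewer was 1.71% of all genes. The 18 equal genes had 0 covered bases in both lists. Among the 16 genes with a start peak in both lists, the median covered length was 1761 bases under shStau2 and 1545 under shControl, with a median difference of 389 bases per gene. HOXC4, HOXC5 and HOXC6 share a start and a peak but are each counted here. Both medians are the values of that peak, so they are not medians of separate measurements. For the 10158 protein-coding genes with a start peak in both lists the medians were 2265 bases under shStau2 and 1870 under shControl, and the median difference was 331.

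**Figure D1:**
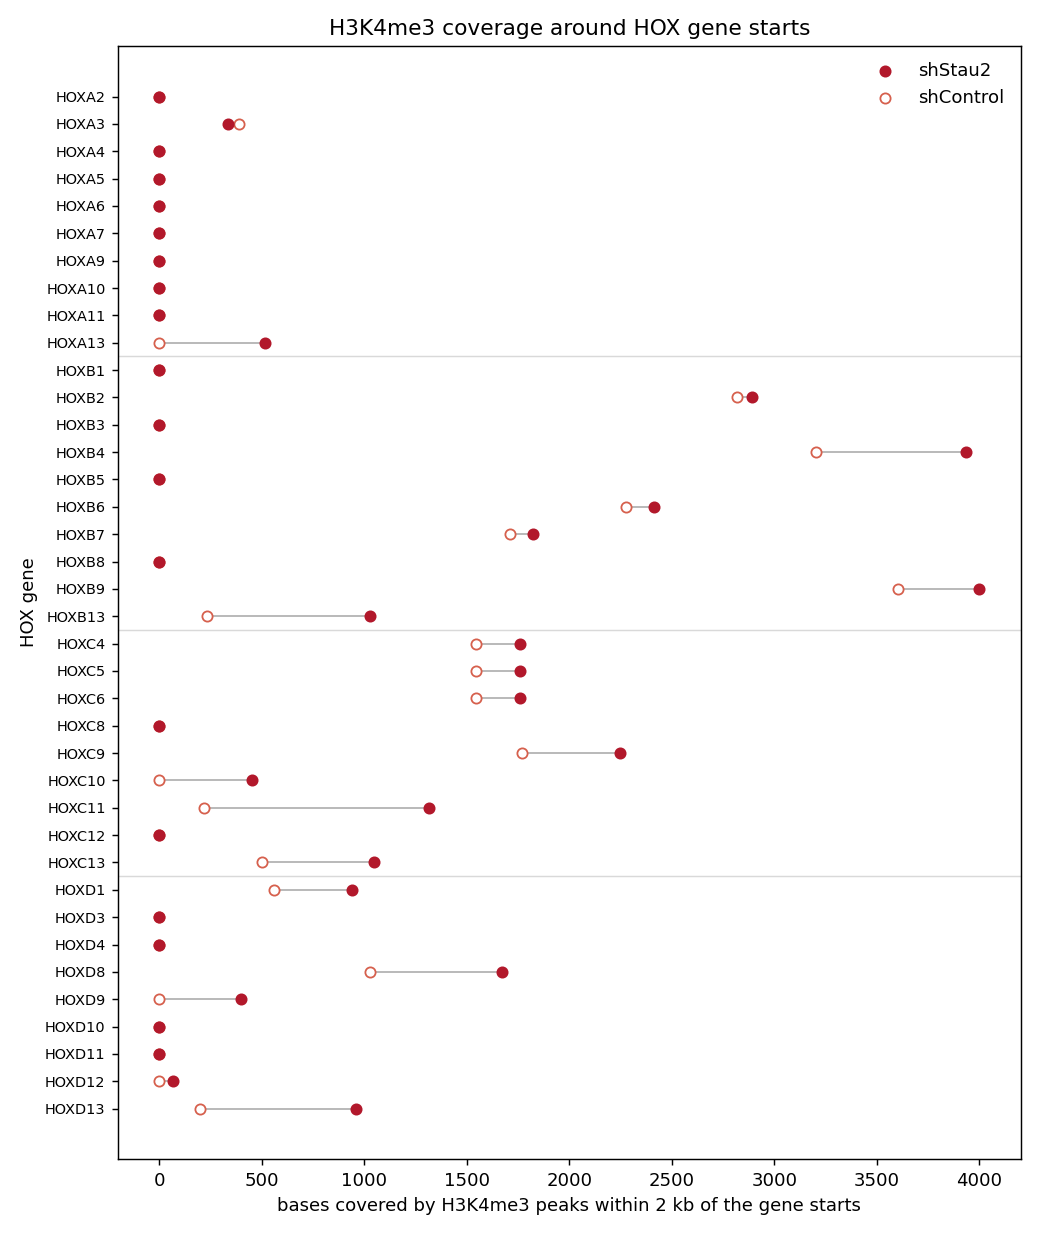
Bases covered by H3K4me3 peaks within 2 kb of the annotated starts (horizontal axis) for 38 HOX genes (rows, by cluster), with filled points for shStau2 and open points for shControl; where both are equal the filled point hides the open one. HOXC11, HOXB13 and HOXD13 show the widest gaps, with 1317, 1028 and 961 bases under shStau2, whereas HOXB9, HOXB4 and HOXB2 have long coverage in both lists.

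The sequences before the starts are shown for members whose start call of either mark differed between the lists or whose start peak of either mark was the strongest of its cluster, where the RefSeq promoter table (GRCh38.p14) has an entry. The table matched 20 of the 39 genes. HOXB4, HOXB6, HOXB9, HOXC9, HOXC10 and HOXD9 had no entry. Each run is the 250 bases upstream of a start, 5′ to 3′ on the strand of the gene. Every CG, the target of DNA methylation, is in capitals.
HOXA13: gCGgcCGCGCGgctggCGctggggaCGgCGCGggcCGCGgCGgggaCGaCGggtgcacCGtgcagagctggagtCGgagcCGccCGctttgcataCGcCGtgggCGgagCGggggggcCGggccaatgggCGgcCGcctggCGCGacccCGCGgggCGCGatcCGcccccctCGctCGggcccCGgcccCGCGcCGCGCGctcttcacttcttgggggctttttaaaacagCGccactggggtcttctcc
HOXA3: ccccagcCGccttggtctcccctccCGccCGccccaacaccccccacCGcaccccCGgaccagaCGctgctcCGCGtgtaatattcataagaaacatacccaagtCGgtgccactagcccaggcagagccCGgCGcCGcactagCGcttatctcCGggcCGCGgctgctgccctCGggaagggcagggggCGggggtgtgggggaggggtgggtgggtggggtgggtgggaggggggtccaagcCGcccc
HOXC4 and HOXC5: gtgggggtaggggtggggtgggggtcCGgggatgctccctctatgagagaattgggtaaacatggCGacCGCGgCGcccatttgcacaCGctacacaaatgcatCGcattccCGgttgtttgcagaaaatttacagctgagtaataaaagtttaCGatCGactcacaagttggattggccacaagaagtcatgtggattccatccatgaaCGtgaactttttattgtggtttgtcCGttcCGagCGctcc
HOXD8: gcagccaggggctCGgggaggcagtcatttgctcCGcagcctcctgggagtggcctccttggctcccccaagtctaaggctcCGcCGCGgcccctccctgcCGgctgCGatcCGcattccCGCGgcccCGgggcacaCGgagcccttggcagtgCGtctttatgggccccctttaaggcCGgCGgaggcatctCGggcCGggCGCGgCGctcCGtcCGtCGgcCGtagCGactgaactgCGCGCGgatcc
HOXD4: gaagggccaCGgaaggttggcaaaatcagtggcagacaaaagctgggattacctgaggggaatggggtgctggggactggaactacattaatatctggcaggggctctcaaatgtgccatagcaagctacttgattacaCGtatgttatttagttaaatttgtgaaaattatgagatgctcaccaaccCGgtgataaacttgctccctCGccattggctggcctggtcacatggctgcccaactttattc
The HOXA13 sequence (chr7:27200092-27200341, minus strand) holds 40 CG, as many as or more than 97.84% of the 22156 promoters of the table. The shStau2 H3K4me3 peak covered 196 of its bases and the shControl list 0. The HOXA3 sequence lies before an internal start (chr7:27113843-27114092, minus strand) and holds 19 CG, and peaks covered 27 of its bases under shStau2 and 119 under shControl. The sequence before the start that HOXC4 and HOXC5 share (chr12:54016638-54016887, plus strand) holds 14 CG and lay under no H3K4me3 peak in either list. The HOXD8 sequence (chr2:176129455-176129704, plus strand) holds 28 CG, and all 250 bases lay under the shStau2 H3K4me3 peak and 0 under a shControl peak. The HOXD4 sequence (chr2:176151300-176151549, plus strand) holds 4 CG and lay under no H3K4me3 peak in either list. All promoters of the table had a median of 16 CG, with quartiles of 5 and 25, and the 27 promoters of the 20 HOX genes had a median of 19, from 0 to 40. On either strand and anywhere in the 250 bases, TATAAA, the core of a TATA box, was found in 5 of 27 HOX promoters and in 9.0% of all promoters. The 27 are not separate genes: they hold 7 starts of HOXA3 and the sequence shared by HOXC4 and HOXC5 once for each. Both starts of HOXA10 are among the 5. TGATNNAT, a form of the site that HOX proteins bind together with PBX, was found in 3 of 27, those of HOXA2, HOXB1 and HOXD11, and in 4.554% of all promoters.

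HOXA was the least marked cluster. Of its 11 genes, 1 had a H3K4me3 start peak in both lists, 2 in the shStau2 list only and 8 in neither, among them HOXA5, HOXA7, HOXA9, HOXA10 and HOXA11. HOXA13, which shapes the digits and the urogenital tract, lies at 27194364 to 27200091 on chromosome 7. Its shStau2 peak spanned 27200146 to 27200659, 514 bases just upstream of the start, with a fold enrichment of 5.631, and the shControl list had no peak there. That value lay low in its list, at the 22.01 percentile, and the call was absent at a −log10 q of 10 or more. HOXA3, needed in the mouse for thymus and parathyroid development, had the strongest start peak of the cluster, with fold enrichments of 7.13 under shStau2 and 6.044 under shControl at its internal start at 27113842. That peak was 335 bases wide under shStau2 and 390 under shControl.

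The highest H3K4me3 peak of HOXA lay at no gene start. It spanned 27160551 to 27161636, 1086 bases, between HOXA7 and HOXA9, with a fold enrichment of 14.16 under shStau2. The shControl peak there spanned 27160700 to 27161064, 365 bases, with a fold enrichment of 4.487. HOXA9, a gene that drives acute myeloid leukaemia when overexpressed, is read from 27165537 towards that peak, so the peak lies beyond its 3′ end. Neither list had a H3K4me3 peak within 1 kb of the start of HOXA9, HOXA7 or HOXA10.

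HOXB carried the widest and highest H3K4me3 peaks of the 4 clusters. Of its 10 genes, HOXB2, HOXB4, HOXB6, HOXB7, HOXB9 and HOXB13 had a start peak in both lists, and HOXB1, HOXB3, HOXB5 and HOXB8 in neither. HOXB3 was judged at its outermost start only. H3K4me3 peaks covered 9795 bases of its gene body, which also spans HOXB4, under shStau2 and 6707 under shControl. HOXB9, a posterior gene of the trunk, had the highest fold enrichment of any HOX start peak, 62.14 under shStau2 and 31.97 under shControl. The shStau2 value stood at the 93.84 percentile of its list and the shControl value at the 93.29 percentile, so the rank of the HOXB9 peak differed little. The shStau2 peak spanned 48623244 to 48631327 as 1 block of 8084 bases, wider than 99.93% of its list, and the same stretch held 3 shControl peaks of 2735, 2772 and 1327 bases.

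HOXB2, a hindbrain gene, had start peaks with fold enrichments of 57.17 under shStau2 and 29.93 under shControl. The summits of these peaks lay 1677 bases downstream of the start under shStau2 and 1752 under shControl. The peaks covered 2893 bases within 2 kb of the start under shStau2 and 2816 under shControl. HOXB4, known for expanding blood stem cells when overexpressed, had 50.85 under shStau2 and 28.41 under shControl. It covered 3936 bases under shStau2 and 3201 under shControl, a gap of 735 bases. HOXB13, a prostate and tail gene at the far end of the cluster, had weak peaks by comparison, with fold enrichments of 10.49 under shStau2 and 4.95 under shControl. Its covered length was 1028 bases under shStau2 and 234 under shControl, the largest difference in HOXB at 794 bases. HOXB6 had a fold enrichment of 30.63 under shStau2 and 18.61 under shControl. HOXB7 had 31.62 under shStau2 and 14.62 under shControl.

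In HOXC, 6 of 9 genes had a H3K4me3 start peak in both lists, HOXC10 in the shStau2 list only, and HOXC8 and HOXC12 in neither. HOXC9, whose mouse counterpart patterns thoracic motor neurons, had the highest value, a fold enrichment of 56.66 under shStau2 and 27.83 under shControl. It covered 2247 bases under shStau2 and 1768 under shControl. HOXC4, HOXC5 and HOXC6 share an annotated start at 54016888 and so 1 peak, with fold enrichments of 32.74 under shStau2 and 13.19 under shControl. Their 3 calls are 1 measurement.

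Of the other posterior HOXC genes, HOXC10, HOXC11 and HOXC13 had weaker start peaks than HOXC9, and HOXC12 had none. HOXC11, a partner of NUP98 in leukaemia fusions, had the largest difference of all 39 genes, with 1317 covered bases under shStau2 and 219 under shControl. The fold enrichment of its strongest start peak was 5.737 under shStau2 and 3.803 under shControl. These values were low, at the 22.42 percentile of the shStau2 list and the 4.219 percentile of the shControl list. With the raised threshold HOXC11 had a start peak in neither list. HOXC13, a hair follicle gene, covered 1048 bases under shStau2 and 503 under shControl, with fold enrichments of 15.2 under shStau2 and 11.56 under shControl. HOXC10, which in the mouse takes part in lumbar patterning, had a shStau2 peak of 251 bases at 53985074 to 53985324 with a fold enrichment of 6.844 and no shControl H3K4me3 peak at its start. Both lists had a H3K4me2 peak over that start, of 1250 bases under shStau2 and 1181 under shControl.

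In HOXD, HOXD1, HOXD8 and HOXD13 had a H3K4me3 start peak in both lists, HOXD9 in the shStau2 list only, and HOXD3, HOXD4, HOXD10, HOXD11 and HOXD12 in neither. HOXD8 had the strongest, with fold enrichments of 36.16 under shStau2 and 18.63 under shControl. It covered 1673 bases under shStau2 and 1026 under shControl. The strongest start peak of HOXD1 had 16.66 under shStau2 and 4.69 under shControl, a ratio of 3.553. That ratio lay at the 95.92 percentile of the ratios of all matched H3K4me3 peaks. A second, weaker matched pair at the same start had 5.655 under shStau2 and 3.572 under shControl. Its ratio of 1.583 lay at the 26.32 percentile. HOXD13, a digit gene, covered 961 bases under shStau2 and 200 under shControl, with fold enrichments of 7.145 under shStau2 and 4.285 under shControl. HOXD9, which acts in limb patterning, had a shStau2 peak of 400 bases at 176122809 to 176123208 with a fold enrichment of 3.845. That value stood at the 4.376 percentile of its list, among its weakest peaks, and the call was absent with equally long lists.

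**Figure D2:**
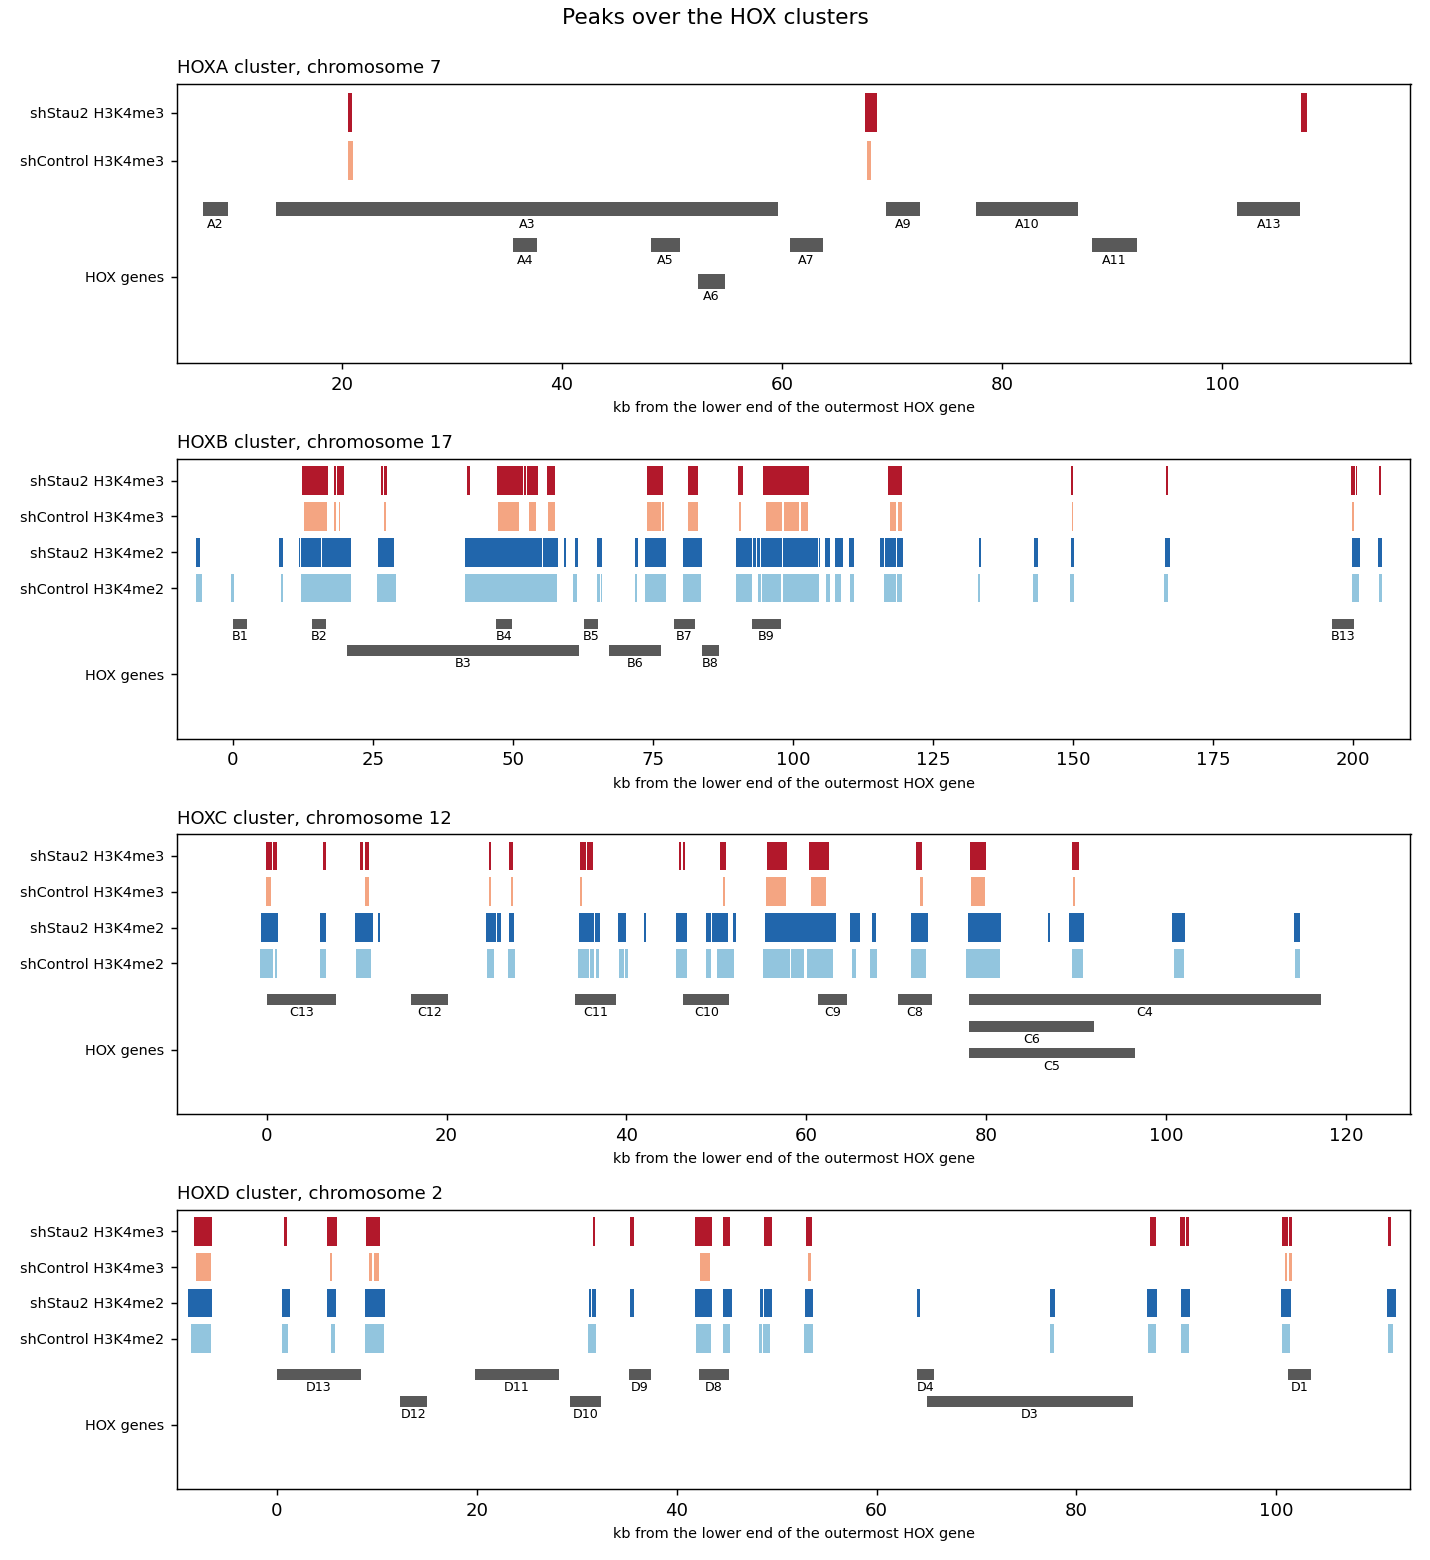
Peaks over the HOXA, HOXB, HOXC and HOXD clusters with 10 kb flanks, with distance in kb from the lower end of the outermost HOX gene on the horizontal axis (the HOXA panel starts at 5 kb) and 1 row per list (red tones H3K4me3, blue tones H3K4me2, the darker tone shStau2), above the HOX genes as grey bars named without the prefix HOX. The HOXA panel shows 3 H3K4me3 peaks under shStau2 and 2 under shControl, HOXB long blocks around HOXB2, HOXB4 and HOXB9 in all 4 lists, and HOXD 16 H3K4me3 peaks under shStau2 and 8 under shControl.

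By position along the body axis, H3K4me3 start peaks in both lists were found at 6 of 16 genes of the posterior groups 9 to 13, 7 of 15 of the central groups 4 to 8 and 3 of 8 of the anterior groups 1 to 3. The covered length was greater under shStau2 at 10 posterior, 7 central and 3 anterior genes, and smaller at 0 posterior, 0 central and 1 anterior gene, HOXA3. HOXC4, HOXC5 and HOXC6, which share a start, are each counted among the 7 central genes. No test of a difference between these groups was made.

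H3K4me2 lay at the starts of most genes of HOXB and HOXC in both lists, and HOXD held the start calls found under shStau2 alone. Of the 28 HOX genes of HOXB, HOXC and HOXD, 18 had a H3K4me2 start peak in both lists, or 64.29%, against 72.3% of 11267 genes on the same chromosomes. HOXD4 and HOXD9 had one in the shStau2 list only, or 7.143%, against 2.13% of all genes, and neither call was present at a −log10 q of 10 or more or at a fold of 5 or more. In the shControl list only there were 0, against 0.568%, and 8 genes had none in either list, against 25.0%. The 8 were HOXB1, HOXB8, HOXC8, HOXC12, HOXD3, HOXD10, HOXD11 and HOXD12. HOXB5 had a H3K4me2 start peak of fold enrichment 7.882 under shStau2 and 6.714 under shControl and no H3K4me3 start peak in either list. The outermost start of HOXB3 showed the same, with 3.893 under shStau2 and 3.923 under shControl. The HOXD4 peak, at a gene of the hindbrain and spinal cord boundary, spanned 176151546 to 176151865, 320 bases from just before the annotated start into the gene, with a fold enrichment of 4.659. The HOXD9 peak spanned 441 bases with a fold enrichment of 4.368, at the place of its H3K4me3 peak. HOXD9 was thus the only one of the 28 genes with a start peak of both marks under shStau2 and of neither under shControl.

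The covered H3K4me2 length was greater under shStau2 at 16 of 28 HOX genes, or 57.14% against 56.0% of all genes, and smaller at 6, where it was smaller at 20.4% of all genes. The 6 were HOXB2, HOXB3, HOXC4, HOXC5 and HOXC6 with their shared start, and HOXD10. HOXD8 had the strongest H3K4me2 start peak of the HOX genes, with fold enrichments of 56.01 under shStau2 and 31.92 under shControl. These stood at the 99.88 percentile of the shStau2 list and the 98.92 percentile of the shControl list. In HOXB the strongest was that of HOXB4 under shStau2, at 34.34, where shControl had 20.02, and that of HOXB6 under shControl, at 24.74, where shStau2 had 28.58. In HOXC the shared start of HOXC4, HOXC5 and HOXC6 led both lists, with 30.71 under shStau2 and 28.0 under shControl. Peaks covered 2102 bases there under shStau2 and 2315 under shControl. HOXC13 had the lower value under shStau2, 19.71, against 25.7 under shControl, although it covered 1878 bases under shStau2 and 1589 under shControl. HOXC9 covered 3948 bases under shStau2 and 3335 under shControl, the largest H3K4me2 difference among the HOX genes.

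Over whole clusters with 10 kb flanks, H3K4me3 peaks covered more bases under shStau2 in each cluster, and so they did around all protein-coding genes. In HOXA they covered 2151 bases under shStau2 and 755 under shControl, a ratio of 2.849. In HOXB they covered 34332 bases under shStau2 and 25458 under shControl, a ratio of 1.349. In HOXC the lengths were 13128 under shStau2 and 7918 under shControl, a ratio of 1.658. In HOXD they were 11328 under shStau2 and 4572 under shControl, a ratio of 2.478. The same ratio over all protein-coding genes with 10 kb flanks was 1.315, so that HOXB lay close to it and HOXC and HOXD above it. With the raised threshold the ratios were 1.199 for HOXB, 1.111 for HOXC and 1.771 for HOXD, against 1.227 for all genes, so that HOXC lay below it. HOXA then had 1.438, which rests on 1 peak under shStau2 and 2 under shControl. The HOXD lengths include a peak inside the neighbouring gene EVX2, in the flank, of 1859 bases under shStau2 and 1583 under shControl. Without flanks and at the main threshold the HOXD ratio was 3.059.

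HOXB was the most covered cluster in both lists and HOXA the least. H3K4me3 peaks lay over 15.59% of HOXB under shStau2 and 11.56% under shControl and over 9.569% of HOXC under shStau2 and 5.771% under shControl. They lay over 9.178% of HOXD under shStau2 and 3.704% under shControl, and over 1.692% of HOXA under shStau2 and 0.594% under shControl. Around all protein-coding genes they lay over 2.105% under shStau2 and 1.6% under shControl. H3K4me2 peaks covered 29.59% of HOXB under shStau2 and 28.09% under shControl, a ratio of covered bases of 1.054. The H3K4me2 ratios were 1.15 for HOXC and 1.251 for HOXD, against 1.123 for all genes. The widest H3K4me2 peak of HOXB ran over HOXB4, from 48569897 to 48583736, 13840 bases under shStau2 against 13938 under shControl, each wider than 99.99% of its list.

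**Figure D3:**
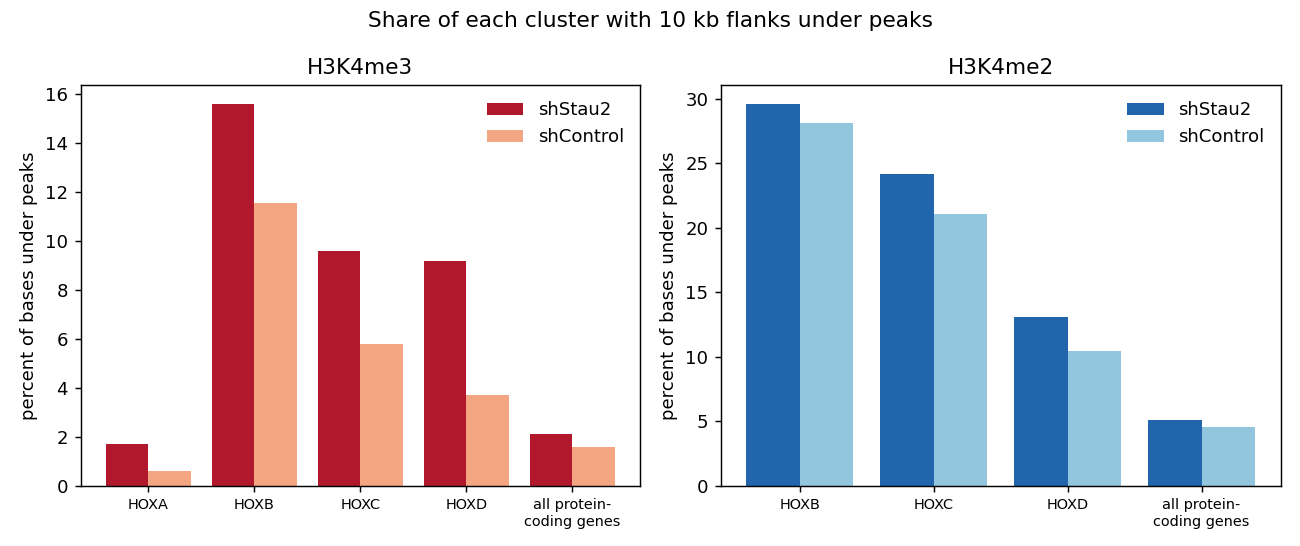
Percent of bases under peaks (vertical axes, from 0) in each HOX cluster with 10 kb flanks and around all protein-coding genes, for H3K4me3 (left panel) and H3K4me2 (right panel), with shStau2 as the dark and shControl as the light bar. H3K4me3 peaks lay over 9.178% of HOXD under shStau2 and 3.704% under shControl, while the H3K4me2 bars of HOXB are 29.59% under shStau2 and 28.09% under shControl.

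Nearly all shControl peaks of the clusters were found again under shStau2. All 39 shControl H3K4me3 peaks had a shStau2 peak on at least 1 of their bases, or 100% (exact 95% interval 90.97 to 100, counting error only), against 98.93% across the genome. Of the 57 shStau2 H3K4me3 peaks, 34 overlapped a shControl peak, or 59.65% (45.82 to 72.44), against 67.96% across the genome. For H3K4me2, 63 of 74 shStau2 peaks were shared, or 85.14% (74.96 to 92.34), against 76.58%, and 69 of 70 shControl peaks, or 98.57% (92.3 to 99.96), against 88.82%.

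The 23 H3K4me3 peaks of the clusters without a shControl partner had a median of 368 bases in width and of 5.493 in fold enrichment. The 34 shared shStau2 peaks had medians of 918.5 bases and 14.83. Across the genome, shStau2 peaks without a shControl partner had medians of 321 bases and 5.295. Of the 23, 7 lay within 1 kb of a HOX start, 8 elsewhere in HOX genes and 8 outside them. HOXD held 9, HOXB 6, HOXC 6 and HOXA 2. The highest, with a fold enrichment of 9.881, spanned 176136257 to 176137013 between HOXD8 and HOXD4, over the non-coding genes HOXD-AS2 and LOC401021. Of the 21 in HOXB, HOXC and HOXD, 20, or 95.24%, overlapped a shControl H3K4me2 peak, against 86.46% of such peaks on the same chromosomes. The exception was the HOXD9 peak.

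At peaks matched 1 to 1, the HOX clusters were near the genome. The median ratio of H3K4me3 fold enrichment, shStau2 over shControl, was 1.889 over 30 peaks, from 0.9249 to 3.553, against 1.948 across the genome. Of the 30, 13 had a ratio of 2 or more, where 46.2% of all matched peaks had. The median ratio was 1.91 over 11 peaks of HOXB, 1.508 over 11 peaks of HOXC and 2.329 over 6 peaks of HOXD, and the 2 peaks of HOXA had 1.18 and 3.156. The lowest ratio, 0.9249, was that of a peak at 53989265 to 53989886 near the 3′ end of HOXC10, with fold enrichments of 4.413 under shStau2 and 4.771 under shControl. After HOXD1, the highest was 3.404 for a peak inside HOXC6, HOXC5 and HOXC4 at 54028352 to 54029163, with 11.94 under shStau2 and 3.507 under shControl.

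For H3K4me2 the median ratio was 1.302 over 48 peaks, against 1.168 across the genome, and 5 of 48 peaks had a ratio of 2 or more, where 6.29% of all matched peaks had. The medians were 1.135 for HOXB, 1.166 for HOXC and 1.592 for HOXD. In HOXD, 13 of 14 matched H3K4me2 peaks had a ratio over 1, where 68.48% of all matched peaks had. The lowest HOX ratio, 0.5237, was that of a peak inside HOXC11 at 53975350 to 53975859, with fold enrichments of 4.878 under shStau2 and 9.314 under shControl.

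**Figure D4:**
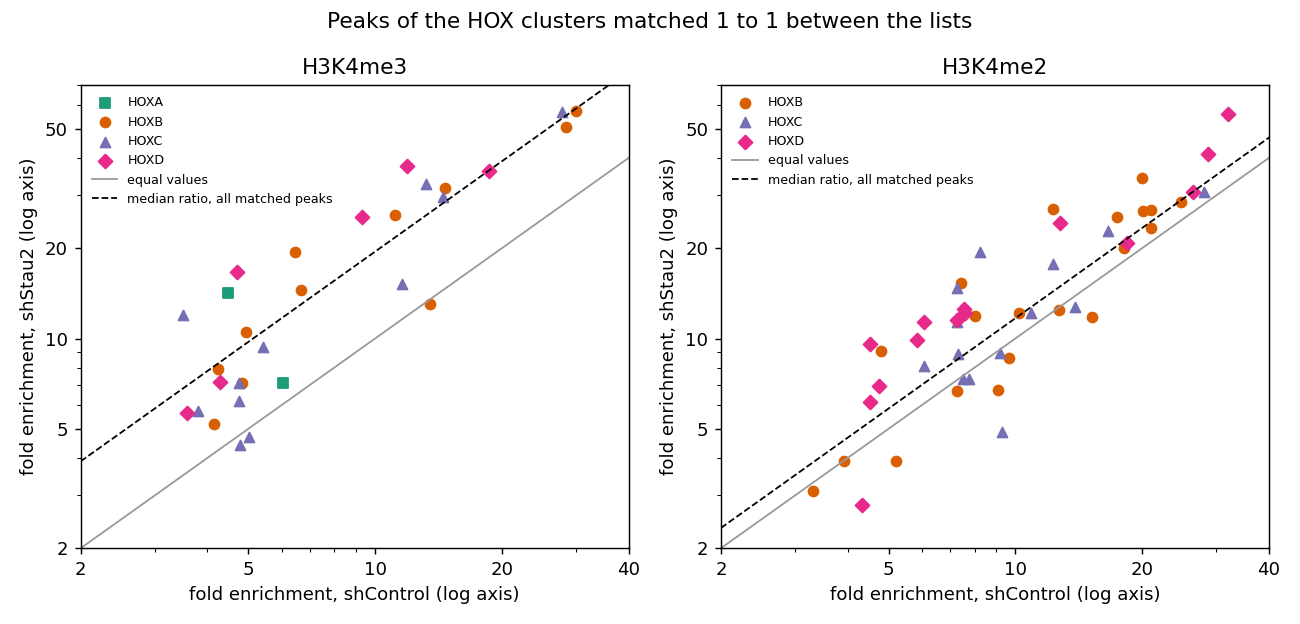
Fold enrichment under shStau2 (vertical, log axis) against shControl (horizontal, log axis) for HOX cluster peaks matched 1 to 1 between the lists, coloured by cluster, with H3K4me3 on the left and H3K4me2 on the right; the grey line marks equal values and the dashed line the median ratio of all matched peaks, 1.948 and 1.168. H3K4me3 points scatter around the dashed line, and most HOXD points of the H3K4me2 panel lie above it.

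H3K4me3 of the clusters lay inside H3K4me2. Every H3K4me3 peak of HOXB, HOXC and HOXD overlapped a H3K4me2 peak of the same hairpin, as nearly all H3K4me3 peaks did elsewhere. Across the compared chromosomes, 551 of 18646 H3K4me3 peaks overlapped none under shStau2 and 275 of 15457 under shControl. In HOXC 100% of the H3K4me3 bases lay under H3K4me2 peaks with either hairpin, in HOXB 98.14% under shStau2 and 99.69% under shControl, and in HOXD 97.11% under shStau2 and 93.02% under shControl. On the same chromosomes as a whole the shares were 93.48% under shStau2 and 91.49% under shControl. H3K4me2 covered 1.425 times as many bases as H3K4me3 in HOXD under shStau2 and 2.822 times under shControl. The same quotient was 2.527 under shStau2 and 3.644 under shControl in HOXC, and 1.898 under shStau2 and 2.43 under shControl in HOXB. On these chromosomes as a whole it was 2.468 under shStau2 and 2.93 under shControl. In HOXD, 4 of 18 H3K4me2 peaks held no H3K4me3 peak under shStau2, against 9 of 15 under shControl, in HOXC 12 of 24 against 14 of 25, and in HOXB 16 of 32 against 17 of 30. On these chromosomes as a whole 41335 of 61482 held none under shStau2 and 40068 of 56593 under shControl.

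The clusters also hold non-coding genes, many of which lie antisense to a HOX gene, and peaks cannot be assigned to a strand. A H3K4me3 peak overlapped 14 of 28 long non-coding RNA genes in both lists, 7 in the shStau2 list only and 0 under shControl alone. Of all such genes, 21.1% were overlapped in both lists, 5.48% in the shStau2 list only and 0.066% under shControl alone. Among the 14 was FLJ12825, which begins in the HOXC flank but whose peaks of both marks lie beyond that flank. Among the 7 were HOTTIP, HOXC-AS3, HOXD-AS2, HAGLROS, LOC401021 and LOC105371811. HOTTIP, known to recruit trithorax proteins to the posterior HOXA genes, begins beside HOXA13 and shares its peak. HOXC-AS3 shares the HOXC10 peak. HOXD-AS2 and LOC401021 share 1 peak, so their 2 calls are 1 measurement. HOTAIR, antisense to HOXC11 and known for binding Polycomb proteins, had H3K4me3 peaks in both lists. The pair nearest the lower end of the gene, at 53963577 to 53963814 under shControl, had fold enrichments of 4.684 under shStau2 and 5.009 under shControl, and the next pair 6.213 under shStau2 and 4.765 under shControl. The highest shStau2 value, 6.824, was that of a peak with no shControl partner. H3K4me2 peaks overlapped 21 of 22 long non-coding RNA genes in both lists and none under 1 hairpin alone. Of all such genes 39.6% were overlapped in both lists, 4.14% under shStau2 alone and 1.48% under shControl alone.

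Of the 8 microRNA genes of the clusters, MIR7704 lay under a H3K4me3 peak in both lists, as 9.47% of all microRNA genes did. MIR10A did so in the shStau2 list only, as 1.83% did, and the other 6 lay under none. MIR10A lies at 48579838 to 48579947 between HOXB4 and HOXBLINC, a non-coding gene that acts on the anterior HOXB genes. The shStau2 HOXB4 peak spanned 48575718 to 48580285 and covered all 110 bases of MIR10A. The shControl HOXB4 peak spanned 48575815 to 48579550 and ended 288 bases before it. MIR10A lay under the wide H3K4me2 peak of both lists, as MIR196A1 did under another. That was so of 14.6% of all microRNA genes. MIR7704 lay under H3K4me2 under shStau2 alone, as 1.21% of microRNA genes did, and none of these genes did under shControl alone, as 0.302% did. The shControl H3K4me2 peak lay 26 bases from MIR7704.

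**Figure D5:**
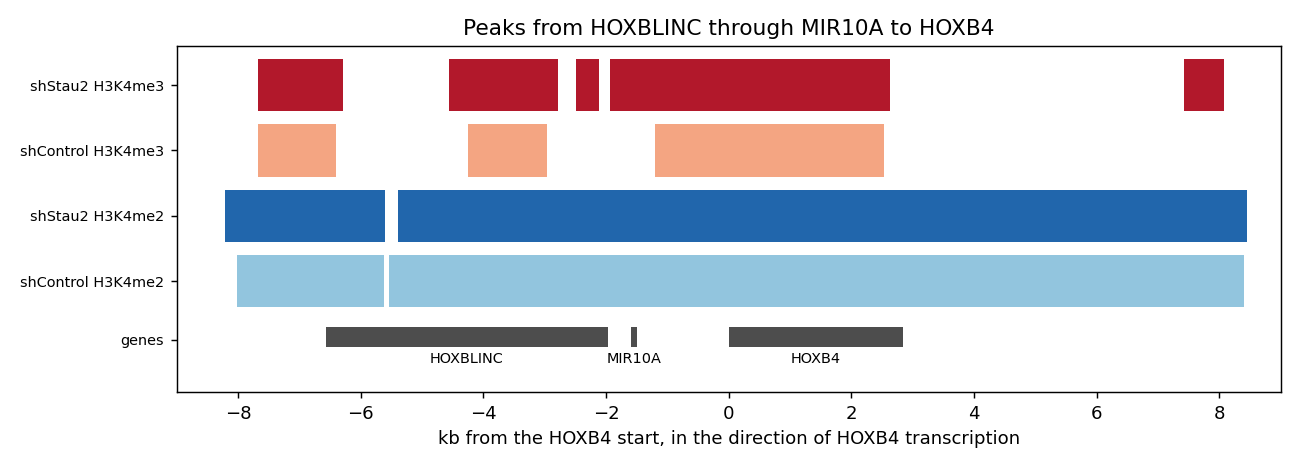
Peaks of the 4 lists from HOXBLINC through MIR10A to HOXB4, with kb from the HOXB4 start in the direction of its transcription on the horizontal axis and 1 row per list above the genes (grey bars). The shStau2 H3K4me3 block over HOXB4 is 4568 bases wide and reaches across MIR10A, the shControl block of 3736 bases stops 288 bases short of it, and H3K4me2 covers it in both lists.

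The mature sequences of these microRNAs are given because miR-10 and miR-196 are the microRNA families of the HOX clusters and target HOX messages. They are taken from RefSeq (GRCh38.p14), 5′ to 3′, with the seed, bases 2 to 8, in capitals.
hsa-miR-10a-5p: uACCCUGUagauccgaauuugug
hsa-miR-196a-5p: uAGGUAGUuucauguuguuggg
hsa-miR-196b-5p: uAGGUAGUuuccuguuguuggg
hsa-miR-7704: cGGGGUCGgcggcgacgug
The miR-10a-5p sequence lies on the minus strand of chromosome 17 at 48579904 to 48579926. The miR-196a-5p sequence comes from MIR196A1 in HOXB and from MIR196A2 in HOXC, and it shares the seed AGGUAGU with miR-196b-5p of HOXA. H3K4me3 covered none of MIR196A1, MIR196A2 and MIR196B in either list, although H3K4me2 covered MIR196A1 in both. MIR7704 lies beside the start of HOXD1. MIR10B, the sister gene of MIR10A in HOXD, lay under neither mark in either list.

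The genes that act with or on the HOX proteins were counted by peaks within 1 kb of either gene end. By that count 60.5% of all protein-coding genes had H3K4me3 in both lists, 3.89% under shStau2 alone, 0.0701% under shControl alone and 35.6% in neither. Of 9 genes of the PBX, MEIS and PKNOX cofactors, 7 had H3K4me3 in both lists, PKNOX2 in the shStau2 list only, with a fold enrichment of 7.13, and MEIS3 in neither. MEIS1, the cofactor of HOXA9 in leukaemia, had 25.31 under shStau2 and 14.23 under shControl. Of 13 HOX activators, 9 had H3K4me3 in both lists, CDX2 in the shStau2 list only, with a fold enrichment of 6.213, and CDX1, CDX4 and MLLT3 in neither. KMT2A, the H3K4 methyltransferase of HOX genes, had 58.61 under shStau2 and 37.1 under shControl.

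A list of 18 genes held Polycomb genes, CTCF, KDM6A and KDM6B, and all had H3K4me3 in both peak lists. Among them, EZH2, the H3K27 methyltransferase, had 69.82 under shStau2 and 39.35 under shControl. H3K4me2 was compared at 7 cofactor genes, 7 activator genes and 14 of these 18 genes. It lay in 1 peak list only at 0 of them. Of all genes, 2.51% had it under shStau2 alone, 0.716% under shControl alone and 71.0% in both. Of 66 homeobox genes outside the clusters, 24 had H3K4me3 in both lists, 7 in the shStau2 list only and 35 in neither. The 7 were CDX2, EMX2, EN2, LHX2, NKX2-1, NKX2-2 and TLX1. By the same count of gene ends, 17 HOX genes had H3K4me3 in both lists, 6 under shStau2 alone, 1 under shControl alone and 15 in neither. The shControl call was HOXC8, where neither list had a peak within 1 kb of the start and the shStau2 peak at its other end lay just outside the window.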

How the data were processed

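The authors used Bowtie2, of a version not stated here, and MACS2 with build hg38, per the submitters' processing notes. Per the file headers, MACS2 2.1.2 called narrow peaks in each library against the input of the same hairpin, at a q-value of 0.05, with a fragment length of 200 bases, 76-base tags, a genome size of 2.70e+09, at most 1 tag per position and the larger data set scaled to the smaller. The authors' lists give the pileup signal at each summit, the fold enrichment as a ratio to the local background, and the −log10 p-value and −log10 q-value as deposited. Both H3K4me2 lists end at 65507 rows, under shStau2 on chromosome 4 and under shControl on chromosome 6, and were used on whole chromosomes before that point. Duplicates were 13% of H3K4me3 tags under shStau2 and 7% under shControl, and 8% of H3K4me2 tags under shStau2 and 6% under shControl. Intervals and calls at this depth cover counting error only.

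From these lists, peaks were set against gene positions of the RefSeq table (GRCh38.p14). Starts came from the RefSeq promoter table for 20 HOX genes. The other 19 took the strand shared by all entries of their cluster and the matching end of the gene, which is its outermost start; 44 distinct HOX starts resulted. The orientation of HOXB rests on 1 entry, that of HOXB1. A peak was at a start when any part of it lay within 1 kb of any annotated start, and covered bases were counted within 2 kb. The summit of a start peak could lie farther away, and at different places in the 2 lists. Background genes were those with a promoter entry or, for HOX, so placed. Peaks were shared when they overlapped by 1 base, matched when each overlapped exactly 1 of the other list, and shares carry exact Clopper-Pearson intervals. Peak overlap was tested on simulated data. Named in full were genes with a start peak in 1 list only, the strongest start peak of each cluster and mark, and the largest and smallest differences of covered bases. All 39 enter the counts; the values of 1 gene are not reported here. Other genes and peaks were named after their values were seen. The members and lists were chosen with earlier results of these data known. Alternatives were a −log10 q of 10, a fold of 5, equal numbers of peaks, a raised threshold, merged peaks, other windows and flanks, either gene end, and 50% reciprocal overlap. The raised threshold held shControl peaks to the 5th percentile of their list and shStau2 peaks to that value times the ratio of the median fold enrichments at matched peaks. Of the activator list, ENL had no match, being an older symbol of MLLT1. The software was Python 3.11.15 with pandas 2.3.3, numpy 2.4.6, matplotlib 3.10.9 and scipy 1.17.1.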

Additional observations from a re-analysis of the deposited data

How the results depend on the processing

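The start calls, the ratios of covered bases over clusters and the shares of overlapping peaks were recomputed, each under the alternatives that bear on it, and no other value was. Of 100 recomputed values 86 stayed within 1.5 times the main count or ratio, or within the interval of a share, and 14 moved. No ratio crossed 1. H3K4me3 start calls in the shStau2 list only numbered 7 at a fold of 5 or more and 0 with the raised threshold, against 4. Those in the shControl list only numbered 2 with the raised threshold and 1 by either gene end, against 0, so that with the raised threshold the calls in 1 list only lay under shControl and not under shStau2. H3K4me2 start calls in the shStau2 list only numbered 1 at a fold of 5 or more (HOXD13), against 2. A count that stayed did not always hold the same genes. At a −log10 q of 10 or more the H3K4me3 calls under shStau2 alone were HOXD13, HOXD1, HOXA3, HOXC10 and HOXB13, without HOXA13 and HOXD9, and the H3K4me2 calls were HOXD13 and HOXB5, without HOXD4 and HOXD9. In the shControl list only they numbered 1 with the raised threshold (HOXB3), 1 with windows of 2.5 kb and 1 by either gene end (both HOXB1), against 0. The HOXA ratio of H3K4me3 bases was 5.515 at a fold of 5 or more and 1.438 with the raised threshold, against 2.849, and at a −log10 q of 10 or more it had no value, with 1421 bases under shStau2 and 0 under shControl. At 50% reciprocal overlap the shared H3K4me3 peaks were 36.84% of the shStau2 and 53.85% of the shControl list, and the shared H3K4me2 peaks 71.62% of the shStau2 and 75.71% of the shControl list, under a rule that asks more overlap by construction. The cause of the other shifts was not tested. No paired analysis was possible because each group has 1 library and the labels carry no replicate numbers. At this depth the narrow, weak peaks close to the q-value limit are the least sure.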

Other observations

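The stretch between HOXB9 and HOXB13, 98404 bases that separate HOXB13 from the rest of its cluster, was not bare of either mark. It held 4 H3K4me3 peaks over 8040 bases under shStau2 and 6 peaks over 6255 bases under shControl. Much of this H3K4me3 belongs to the HOXB9 block, which runs past the HOXB9 start at 48626358. That block reaches 48631327 under shStau2, and the shControl peaks there reach 48631216. For H3K4me2 the stretch held 13 peaks over 16159 bases under shStau2 and 12 peaks over 14336 bases under shControl. The non-coding gene LINC02086 lies there, with a highest H3K4me3 fold enrichment of 25.47 under shStau2 and 13.72 under shControl. PRAC1 and PRAC2, protein-coding genes next to HOXB13, were overlapped by no peak of either mark in either list.

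EVX2, a homeobox gene at the posterior end of HOXD, had a H3K4me3 peak inside the gene and away from its ends, with fold enrichments of 37.47 under shStau2 and 11.89 under shControl. The ratio of 3.153 stood at the 92.54 percentile of all matched H3K4me3 peaks. The H3K4me2 fold enrichments there were 30.8 under shStau2 and 26.42 under shControl. Between HOXD3 and HOXD1, where HAGLR lies, H3K4me3 peaks covered 1972 bases under shStau2 and 241 under shControl, and H3K4me2 peaks 2592 bases under shStau2 and 2172 under shControl. The HOXD1 start peak gave 640 of the H3K4me3 bases under shStau2 and all 241 under shControl. The other shStau2 H3K4me3 peaks there had fold enrichments of 3.467, 7.341 and 5.763, each under the raised threshold of 8.2.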
